A study of Mus musculus with 9 samples.

Results

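The transcription factors Gata1, Gata2, Klf1, Tal1, Gfi1b, Gfi1, Cebpa, Cebpe, Spi1, and Runx1 steer the choice between red cell, granulocyte, monocyte, and mast cell fates in bone marrow. These 10 genes were taken by symbol, 1 row each, from the 31053 genes counted in femoral bone marrow of NZB, NZW, and NZBWF1 mice. Single cells from 9 female mice aged 9 to 10 weeks, 3 per strain and 1 library per mouse, were sequenced from transcript 3′ ends. NZB and NZW are inbred strains, and NZBWF1 mice are the F1 offspring of their cross and a model of lupus. The sources used here name no transgene, engineered deletion, or drug treatment for these mice, and red cells had been lysed before sequencing. After quality limits and removal of likely doublets, 36525 cells were analyzed, with 7678854 to 16373447 unique molecular identifiers (UMIs) per mouse and a median of 2107 to 2451 UMIs per cell. Among these cells, 152 barcode sequences occurred in more than 1 library.

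As background, GATA2 acts in stem cells, progenitors, and mast cells, and GATA1 takes its place as red cell precursors mature. GATA1 works with TAL1 in a complex on DNA, and KLF1 then switches on globin and membrane genes. GFI1B is a repressor of transcription that acts within the red cell and megakaryocyte lineages, and its relative GFI1 is the counterpart in granulocytes. PU.1 (encoded by Spi1) and C/EBPα (Cebpa) open the granulocyte and monocyte program, C/EBPε (Cebpe) drives the granule genes of maturing neutrophils, and RUNX1 is needed to form blood stem cells and acts in most of these lineages.

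The genes lie apart from one another in the mouse genome (GRCm38, GENCODE vM21). Gata1 spans X:7959260-7978071 on the minus strand, Gata2 6:88193891-88207032 on the plus strand, and Klf1 8:84901928-84905291 on the plus strand. Tal1 spans 4:115056426-115071755 on the plus strand, Gfi1b 2:28609450-28621982 on the minus strand, and Gfi1 5:107716657-107726036 on the minus strand. Cebpa spans 7:35119293-35121928 on the plus strand, Cebpe 14:54710360-54712174 on the minus strand, and Spi1 2:91082390-91115756 on the plus strand. Runx1 is the longest, at 16:92601466-92826149 on the minus strand. No counted gene overlapped a member on the same strand. On the opposite strand, Gm45091 overlapped Cebpa and Gm26626 overlapped Runx1.

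Red cell members that rose together between progenitors and early erythroid cells were compared at their promoters. RefSeq promoter windows (GRCm38.p6, 250 bases before to 50 after the start) were found for 8 of the 10 genes, 12 windows in all, and none for Cebpe and Spi1. The letters NGATAN, with A or T as the first letter and A or G as the last, which GATA factors bind, were searched on both strands and occurred in 3 of the 12 windows, compared with 29.8% of 32851 windows in the genome. The 3 windows belong to Klf1, Gfi1b, and Tal1. Their first matched base lay 80, 120, and 205 bases before the start. A second window of Tal1 held no match. The letters of an E-box (CANNTG), of PU.1 (GAGGAA), and of KLF factors (CCNCNCCC) were searched as well. They occurred in 9, 3, and 10 of the 12 windows, compared with 72.3%, 28.3%, and 49.5% in the genome. For each of the 3 windows with a GATA match, the 250 bases before the start are shown, with that match in capitals, beside the window of Gata1, which held none. They lie at chr8:84901732-84901981 (plus strand) for Klf1, chr2:28621983-28622232 (minus strand) for Gfi1b, chr4:115056176-115056425 (plus strand) for Tal1, and chrX:7967911-7968160 (minus strand) for Gata1.
Klf1: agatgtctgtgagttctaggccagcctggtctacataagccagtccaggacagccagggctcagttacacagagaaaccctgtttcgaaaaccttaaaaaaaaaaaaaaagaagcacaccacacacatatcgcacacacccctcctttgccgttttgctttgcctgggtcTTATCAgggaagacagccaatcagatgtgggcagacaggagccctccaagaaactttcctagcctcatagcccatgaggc
Gfi1b: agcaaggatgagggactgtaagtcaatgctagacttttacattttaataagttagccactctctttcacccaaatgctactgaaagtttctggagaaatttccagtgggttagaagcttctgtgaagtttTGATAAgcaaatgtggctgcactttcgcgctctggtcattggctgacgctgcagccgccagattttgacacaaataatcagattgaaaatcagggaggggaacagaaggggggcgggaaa
Tal1: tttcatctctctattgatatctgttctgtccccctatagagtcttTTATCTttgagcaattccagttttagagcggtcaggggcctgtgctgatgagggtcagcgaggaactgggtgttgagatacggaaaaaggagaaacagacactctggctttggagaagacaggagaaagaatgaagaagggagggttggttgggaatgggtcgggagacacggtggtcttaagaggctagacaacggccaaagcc
Gata1: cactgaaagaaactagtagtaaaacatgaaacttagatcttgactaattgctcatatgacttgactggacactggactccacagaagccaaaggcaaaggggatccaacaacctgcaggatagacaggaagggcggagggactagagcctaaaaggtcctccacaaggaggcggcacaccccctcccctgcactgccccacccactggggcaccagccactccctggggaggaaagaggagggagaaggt

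Cells were sorted into 18 classes by panels of marker genes that hold none of the 10 members, and 31830 cells (87.1%) fell into a class. Some panels hold genes of the kinds named above as driven by a member. These are granule genes such as Ltf, Camp, and Ngp for neutrophil precursors, and globin and membrane genes such as Hba-a1 and Slc4a1 for hemoglobinizing erythroid cells. The level of such a member in such a class is therefore not independent of the gate. The names stand for RNA markers only and would carry the ending "-like", which is left out here. The classes used most were stem or early progenitor cells (499 cells), early erythroid cells (1539), hemoglobinizing erythroid cells (394), basophil or mast cells (198), granulocyte-monocyte precursors (3220), neutrophil precursors (8330), mature neutrophils (1926), and monocytes (4784). The UMIs of a class were summed within each mouse, and a level is given in CPM, the counts of a gene scaled to a class total of 1000000, as mean ± SD over mice. A mouse entered a class with at least 10 cells, and a level was read in the 16 classes that had at least 6 such mice.

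**Figure D1:**
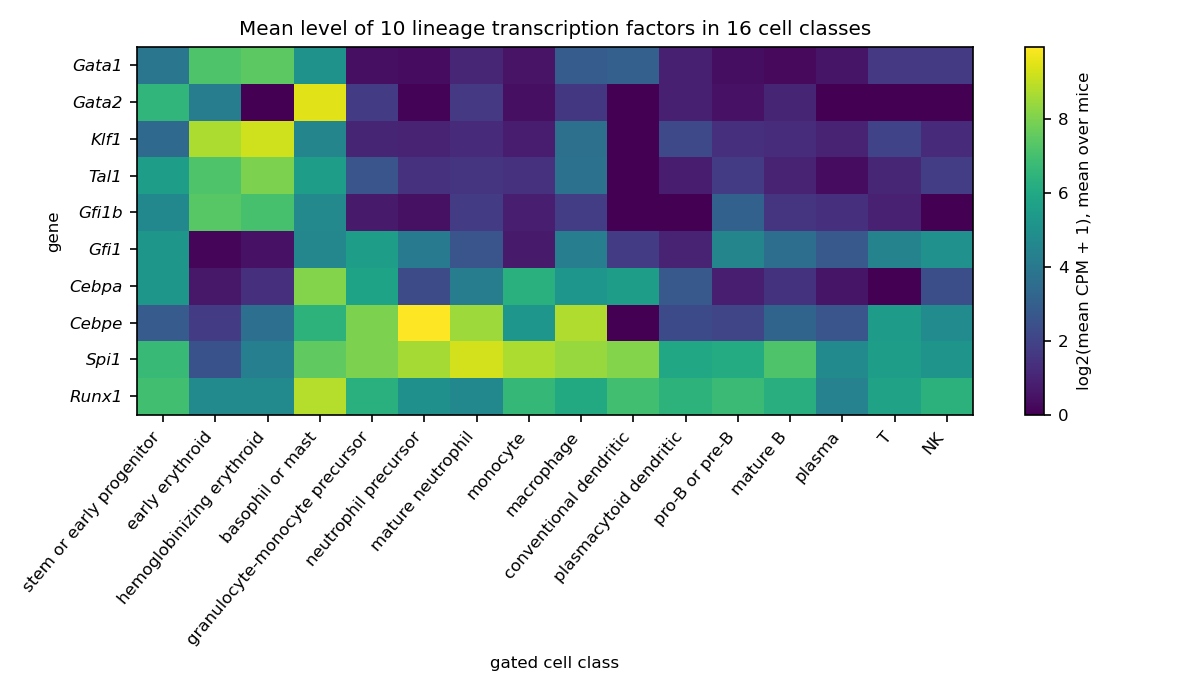
Mean level of each gene (rows) in the 16 gated cell classes (columns), as log2(mean CPM + 1) over 6 to 9 mice, with brighter colors for higher levels. Gata1, Klf1, and Tal1 were highest in hemoglobinizing erythroid cells, Gata2, Cebpa, and Runx1 in basophil or mast cells, Cebpe in neutrophil precursors, and Spi1 in mature neutrophils.

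The 10 genes had their highest mean levels in 6 classes. Hemoglobinizing erythroid cells led for Gata1, Klf1, and Tal1, early erythroid cells for Gfi1b, and basophil or mast cells for Gata2, Cebpa, and Runx1. Granulocyte-monocyte precursors led for Gfi1, neutrophil precursors for Cebpe, and mature neutrophils for Spi1. Classes next to each other in the order of levels were compared for each gene with an exact two-sided sign-flip permutation over mice, 134 comparisons in all. After Benjamini-Hochberg correction, 19 passed 0.05, each with the same order in 9 of 9 mice (exact permutation p = 0.00391, the smallest that 9 mice allow, adjusted 0.0275). For Gfi1 and Runx1, 0 of 14 and 0 of 15 neighboring classes passed, so their order of classes is not resolved step by step. The first step of Runx1, from basophil or mast cells to conventional dendritic cells, had the same order in 6 of 6 mice, but 6 mice allow no p below 0.0312 (exact permutation, adjusted 0.168), so that it could not pass. With 1 mouse left out, the smallest p is 0.00781, so that none can pass unless 20 or 21 comparisons reach it together. Of the comparisons, 18 to 22 reached it, which left 0 below the threshold without NZB replicate 1, NZW replicate 3, or NZBWF1 replicate 3 and up to 22 without another mouse.

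The lead of hemoglobinizing over early erythroid cells passed for Klf1 (608 ± 82.6 compared with 419 ± 32.7 CPM) and for Tal1 (253 ± 57.7 compared with 149 ± 20.4 CPM). It did not pass for Gata1 (171 ± 30.3 compared with 148 ± 22.7 CPM). For Gfi1b, the lead of early over hemoglobinizing erythroid cells did not pass either. Its means were 162 and 133 CPM, with the same order in 7 of 9 mice (exact permutation, adjusted p = 0.0910). Gata2 was resolved at its first 3 steps, from basophil or mast cells (722 ± 129 CPM) to stem or early progenitor cells (93.7 ± 32.3 CPM), early erythroid cells (17.4 ± 7.99 CPM), and granulocyte-monocyte precursors (2.43 ± 1.60 CPM). Cebpa was resolved at its first 2 steps, from basophil or mast cells (277 ± 89.1 CPM) to monocytes (79.6 ± 15.5 CPM) and granulocyte-monocyte precursors (53.0 ± 7.09 CPM). Spi1 was resolved from mature neutrophils (621 ± 88.1 CPM) to monocytes (427 ± 39.8 CPM) and neutrophil precursors (395 ± 34.7 CPM). The other values given here are over 9 mice as well. With at least 2000 UMIs and 1000 genes, Spi1 was not called between mature neutrophils and neutrophil precursors (log2 fold change -0.11). Under the same limit, Cebpa was not called between monocytes and granulocyte-monocyte precursors (-0.03).

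RNA of the neutrophil precursor panel was found in several other classes and has to be kept in view for Cebpe and Spi1. The panel holds 8 genes: Ltf, Camp, Ngp, Lcn2, Ly6g, Fcnb, S100a8, and S100a9. Not all of them are granule genes, and the granule genes are not shown alone here. The summed level of the panel was 218404 CPM in macrophages, with mice between 151117 and 284466 CPM, above their own macrophage panel at 5212 CPM. It was 45940 CPM in basophil or mast cells (7972 to 96660 CPM), 28430 CPM in T cells (440 to 62632 CPM), and 9831 CPM in hemoglobinizing erythroid cells (809 to 29833 CPM). Cebpe was measured at 430 ± 146 CPM in macrophages and 44.2 ± 37.8 CPM in T cells. The part of neutrophil RNA in these levels was not tested, and they are not read as expression by macrophages or T cells.

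Early erythroid cells were set against stem or early progenitor cells to follow the members at entry into the red cell lineage. Klf1 rose 39.5-fold, Gata1 10.9-fold, Tal1 3.15-fold, and Gfi1b by 2.70 ± 0.21 on the log2 scale, while Spi1, Runx1, and Gata2 fell to 0.0437, 0.211, and 0.184 of their level. All 7 members that passed the filter on low counts were called (edgeR quasi-likelihood test with mouse as block, 9 mice, Benjamini-Hochberg adjusted p below 0.05), where 65.5% of 5773 genes were called. A member passes this filter if it is high in either class, so the share of members called is not read against the background. Gfi1, Cebpa, and Cebpe did not pass the filter.

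In stem or early progenitor cells, Gata1 was measured at 10.9, 6, and 10.1 CPM for NZB, at 24.1, 0, and 18.9 for NZW, and at 31.6, 13.5, and 9.64 for NZBWF1. In early erythroid cells of the same mice it was 133, 112, and 134, then 151, 170, and 157, then 184, 159, and 128 CPM. The lowest early erythroid value lay above the highest progenitor value, and the log2 fold change was 3.45 ± 0.30 (edgeR adjusted p = 2.61e-25). The error of a fold change is its SE from the fit, or the counting error of the summed UMIs where that is larger, as for this gene, which had 24 UMIs in progenitors. Klf1 was between 0 and 20.2 CPM in progenitors and between 378 and 466 CPM in early erythroid cells, with no overlap (log2 fold change 5.30 ± 0.33, edgeR adjusted p = 5.02e-40).

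Gata2 moved the other way. It was between 33.0 and 142 CPM in progenitors and between 6.70 and 30.7 CPM in early erythroid cells, so the ranges did not overlap (log2 fold change -2.44 ± 0.39, edgeR adjusted p = 0.000468). Spi1 was between 75.6 and 147 CPM and then between 1.86 and 8.46 CPM (log2 fold change -4.51 ± 0.21, edgeR adjusted p = 1.18e-31). Runx1 was between 92.5 and 164 CPM and then between 15.8 and 38.8 CPM (log2 fold change -2.24 ± 0.14, edgeR adjusted p = 6.40e-24). Median UMIs per cell were 3349 in progenitors and 10031 in early erythroid cells, and a level in CPM is a share of the RNA of a cell, not an amount per cell.

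**Figure D2:**
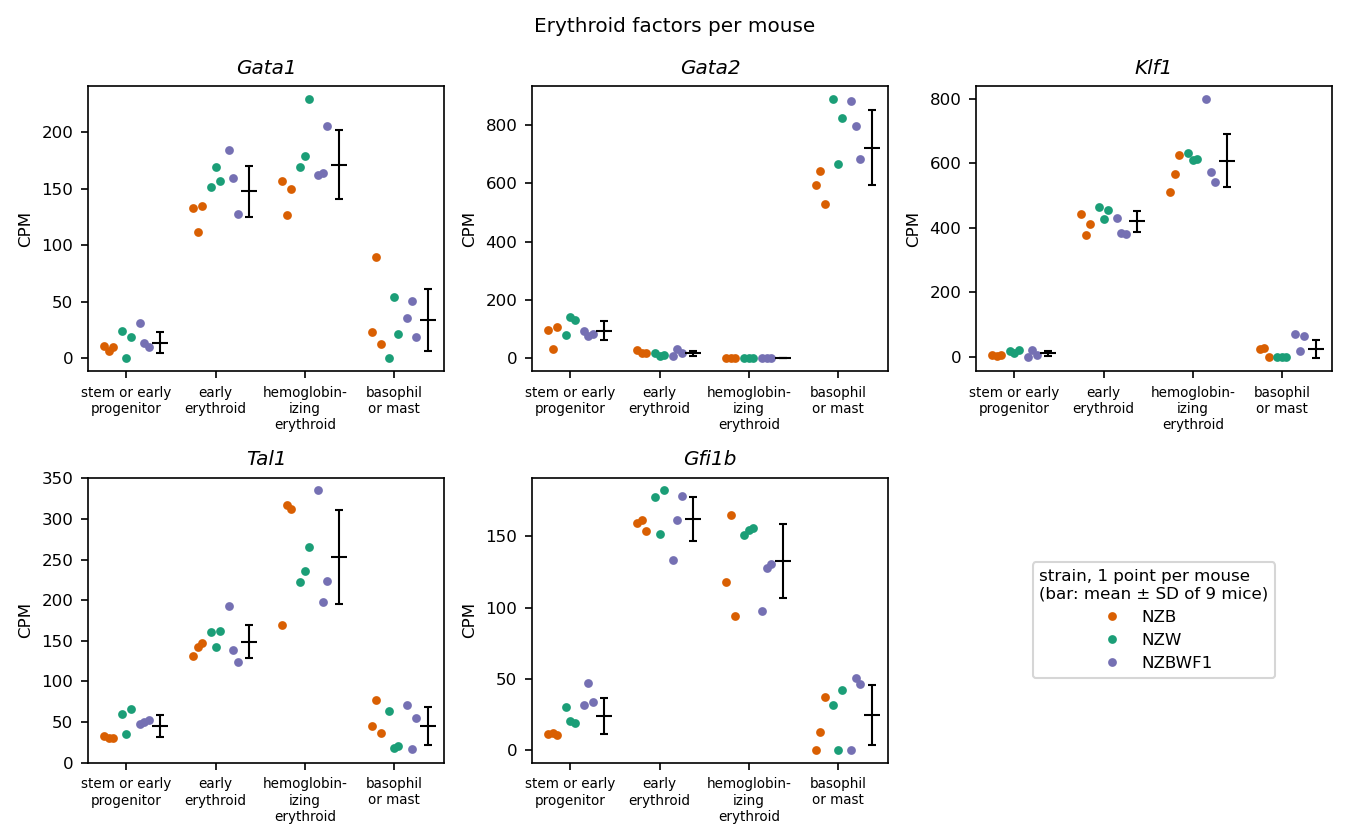
Level in CPM of Gata1, Gata2, Klf1, Tal1, and Gfi1b in 4 cell classes, 1 point per mouse colored by strain, with black bars for the mean ± SD of 9 mice. Gata1, Klf1, Tal1, and Gfi1b were higher in early erythroid than in stem or early progenitor cells of every mouse, and Gata2 was lower.

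Between early and hemoglobinizing erythroid cells, Tal1 rose 1.87-fold (log2 fold change 0.90 ± 0.08, edgeR adjusted p = 2.35e-17), Klf1 1.59-fold (0.66 ± 0.06, 8.68e-17), and Gata1 1.28-fold (0.36 ± 0.09, 0.000340). Gfi1b stood at -0.08 ± 0.09 on the log2 scale (edgeR adjusted p = 0.531) and Runx1 at 0.16 ± 0.22 (0.543). In all, 3 of 5 members tested were called, all higher, compared with 58.5% of 5848 genes. Fold changes are relative to the bulk of genes (TMM scaling). With plain scaling to total UMIs, every value shifted down by about 0.15, and Gfi1b was then called lower at -0.24 ± 0.09 (edgeR adjusted p = 0.0216).

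Gata2 was counted 275 times in early erythroid cells and 0 times in hemoglobinizing erythroid cells. The 0 UMIs allow up to 1.20 CPM in the latter (3 UMIs over all mice, counting error only), which makes Gata2 at least 14.3-fold lower. Without removal of doublets, its share of the 2 GATA genes in hemoglobinizing cells was 0.206%.

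The switch between the 2 GATA factors was measured within each library as the percent of Gata2 among the UMIs of Gata1 and Gata2. This share does not depend on depth or scaling, and it compares UMIs rather than proteins. It was 95.5 ± 3.63% in basophil or mast cells, 86.6 ± 7.63% in stem or early progenitor cells, 10.7 ± 4.87% in early erythroid cells, and 0% in hemoglobinizing erythroid cells (n = 9 mice each). All 6 pairs of classes differed (exact two-sided sign-flip permutation, adjusted p between 0.00469 and 0.0195). The share fell by 75.9 ± 8.97 percentage points from progenitors to early erythroid cells in 9 of 9 mice, while progenitors minus basophil or mast cells gave -8.86 ± 9.23 points, with progenitors higher in 1 of 9 mice. Where whole clusters replaced the marker gates, progenitors had a share of 73.9%. Between the 3 strains, the share did not pass the threshold in progenitors (exact permutation of 280 partitions, p = 0.664), early erythroid cells (p = 0.186), or basophil or mast cells (p = 0.779). In early erythroid cells it was 16.9%, 13.9%, and 12.1% in NZB and 10.1%, 3.8%, and 6.91% in NZW, and NZBWF1 spanned both at 4.13%, 16.2%, and 12.6%.

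**Figure D3:**
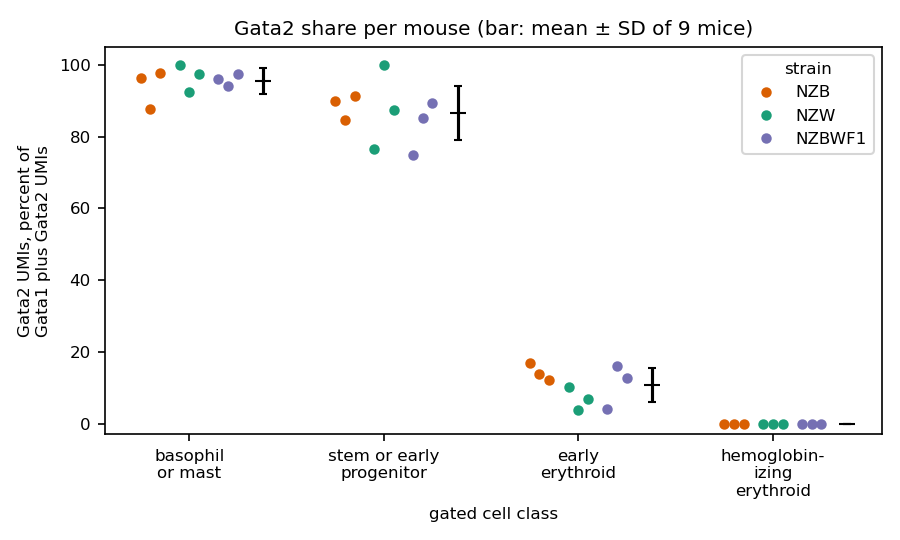
Gata2 UMIs as percent of the UMIs of Gata1 and Gata2 in 4 cell classes, 1 point per mouse colored by strain, with black bars for the mean ± SD of 9 mice. The share lay at 95.5% and 86.6% in basophil or mast and progenitor cells, and at 10.7% and 0% in the erythroid classes.

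The same ratio set GFI1B against GFI1. Gfi1b made up 99.9 ± 0.126% of the UMIs of the pair in early erythroid cells (9 mice) and 1.44 ± 1.05% in granulocyte-monocyte precursors (9 mice). Stem or early progenitor cells lay between, at 34.7 ± 11.1% (7 mice with at least 10 UMIs). Pro-B or pre-B cells held both as well, at 28.7 ± 10.2% (7 mice). For the C/EBP pair, Cebpe made up 82.6 ± 2.46% in granulocyte-monocyte precursors, 99.6 ± 0.117% in neutrophil precursors, 95.5 ± 1.45% in mature neutrophils, and 31.5 ± 4.79% in monocytes (9 mice each). These ratios are given as a description.

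Basophil or mast cells were set against stem or early progenitor cells. Gata2 rose 8.48-fold (log2 fold change 3.08 ± 0.16, edgeR adjusted p = 1.33e-20), Cebpa 7.85-fold (2.97 ± 0.21, 7.44e-17), Runx1 3.73-fold (1.90 ± 0.17, 1.02e-13), and Spi1 1.88-fold (0.91 ± 0.21, 0.000455). All 4 members tested were called, compared with 48.4% of 1690 genes. Gata2 was 593, 641, and 528 CPM in NZB, 889, 666, and 824 in NZW, and 881, 795, and 683 in NZBWF1, and every one of these mice had at most 142 CPM in its progenitors. GATA2 is known to be required for mast cells, and C/EBPα is known to direct basophils. The class held only 11 to 32 cells per mouse, and RNA of the neutrophil precursor panel was present in it as given above.

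Megakaryocytes, which share GATA1, TAL1, and GFI1B with red cells, numbered 93, and only 4 mice had 10 or more. Over all mice Gata2 stood at 273 CPM (95% exact Poisson interval 233 to 317, counting error only), Runx1 at 161 (131 to 195), Gfi1b at 151 (122 to 185), Tal1 at 146 (118 to 179), and Gata1 at 135 (108 to 167). Klf1, which is known to favor red cells over megakaryocytes, was counted 4 times, at 6.42 CPM (1.75 to 16.4). No test was made in this class.

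Granulocyte-monocyte precursors were set against stem or early progenitor cells. This class was gated on Elane, Mpo, Prtn3, Ctsg, and Ms4a3, and promyelocytes within it were not told apart from earlier precursors. Its differences are therefore not read as the first step of entry into the granulocyte and monocyte lineages. Cebpe rose 47.1-fold (log2 fold change 5.56 ± 0.42, edgeR adjusted p = 2.47e-36), Spi1 2.86-fold (1.52 ± 0.10, 5.65e-22), and Cebpa 1.67-fold (0.74 ± 0.18, 0.000324). Gata2 fell by 4.82 ± 0.36 on the log2 scale (edgeR adjusted p = 3.25e-08), Tal1 by 2.80 ± 0.22 (1.20e-18), and Runx1 by 0.37 ± 0.12 (0.00464). Of 7 members tested, 6 were called, compared with 59.2% of 5910 genes. Gfi1 stood at 0.40 ± 0.18 on the log2 scale and missed the threshold (edgeR adjusted p = 0.0525). It was called higher at 1.17 with whole clusters as classes. It was also called with at least 2000 UMIs and 1000 genes (0.41, edgeR adjusted p = 0.0414) and without removal of doublets (0.46, 0.0246). The same held with RLE in place of TMM scaling (0.42, 0.0405) and without a filter on low counts (0.64, 0.00108). Leaving out NZB replicate 3 (0.47, 0.0346) or NZBWF1 replicate 2 (0.63, 0.00556) gave a call as well. With total UMIs as the scale Gfi1 stood at 0.10 (edgeR adjusted p = 0.657), so its change is not settled. Runx1 lost its call without a filter on low counts (-0.13, edgeR adjusted p = 0.406) and without the mouse block (-0.36, 0.0520).

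Cebpe was between 0 and 14.5 CPM in progenitors and between 215 and 354 CPM in granulocyte-monocyte precursors. Spi1 was between 75.6 and 147 CPM and then between 215 and 290 CPM. For both, every mouse had a higher precursor level than any progenitor level. Cebpa overlapped, at 18.0 to 60.6 CPM in progenitors and 42.1 to 67.0 CPM in precursors.

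Neutrophil precursors were set against granulocyte-monocyte precursors to follow granule formation. Cebpe rose 6.99-fold (log2 fold change 2.81 ± 0.08, edgeR adjusted p = 7.14e-23) and Spi1 2.81-fold (1.49 ± 0.06, 8.25e-20). Cebpa fell by 2.94 ± 0.16 on the log2 scale (edgeR adjusted p = 4.43e-19), Gfi1 by 0.60 ± 0.10 (2.49e-06), and Runx1 by 0.58 ± 0.08 (2.89e-07). All 5 members tested were called, compared with 82.7% of 8262 genes.

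These sizes moved with the scale more than in any other pair. The neutrophil precursor panel summed to 460919 to 503098 CPM in this class, and its part in the shift was not tested. With total UMIs as the scale, the median over all genes tested shifted by -0.84 and the log2 fold changes became 1.96 for Cebpe, 0.64 for Spi1, -3.77 for Cebpa, -1.43 for Gfi1, and -1.40 for Runx1, all still called in the same direction. In CPM, Cebpe reached 1042, 926, and 939 for NZB, 1055, 945, and 1080 for NZW, and 833, 1016, and 1070 for NZBWF1, each above the same gene in the precursors of any mouse. Cebpa was between 2.18 and 5.41 CPM there and did not overlap its range in granulocyte-monocyte precursors.

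In mature neutrophils compared with neutrophil precursors, Spi1 rose 1.45-fold (log2 fold change 0.53 ± 0.07, edgeR adjusted p = 1.69e-08). Cebpe fell by 1.58 ± 0.08 on the log2 scale (edgeR adjusted p = 1.02e-17), Gfi1 by 1.76 ± 0.34 (1.89e-05), and Runx1 by 0.43 ± 0.17 (0.0249). All 4 members tested were called, compared with 63.8% of 5422 genes. The median mature neutrophil held 1738 UMIs, and a limit of 2000 UMIs and 1000 genes removed the change of Spi1 (-0.11, edgeR adjusted p = 0.517) and of Runx1 (0.36, 0.240). The call of Runx1 was also lost without NZW replicate 1, 2, or 3 or NZBWF1 replicate 1, at -0.37 to -0.40 (edgeR adjusted p between 0.0577 and 0.0670). It was lost as well with whole clusters as classes (-0.08, 0.706), without removal of doublets (-0.20, 0.263), with total UMIs as the scale (-0.30, 0.145), with a larger lead over the next panel (-0.45, 0.0505), and without the mouse block (-0.42, 0.0994), so this change of Runx1 is not settled.

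Monocytes were set against the same granulocyte-monocyte precursors, a class in which promyelocytes were not told apart. Gfi1, with 8 UMIs in monocytes, fell by 6.12 ± 0.51 on the log2 scale (edgeR adjusted p = 8.25e-23), from 27.6 to 59.7 CPM in precursors to at most 1.64 CPM in monocytes. Cebpe fell by 3.09 ± 0.08 (edgeR adjusted p = 4.03e-27), to between 25.3 and 49.9 CPM. Spi1 rose 1.38-fold (log2 fold change 0.47 ± 0.05, edgeR adjusted p = 4.50e-10) and Cebpa 1.21-fold (0.27 ± 0.08, 0.00412). Of 5 members tested, 4 were called, compared with 75.9% of 8444 genes. The call of Cebpa did not hold with at least 2000 UMIs and 1000 genes (-0.03, edgeR adjusted p = 0.820). Runx1 stood at 0.01 ± 0.07 on the log2 scale (edgeR adjusted p = 0.870). It was called higher with total UMIs as the scale (0.32, edgeR adjusted p = 0.000101) and with at least 2000 UMIs and 1000 genes (0.20, 0.0178).

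**Figure D4:**
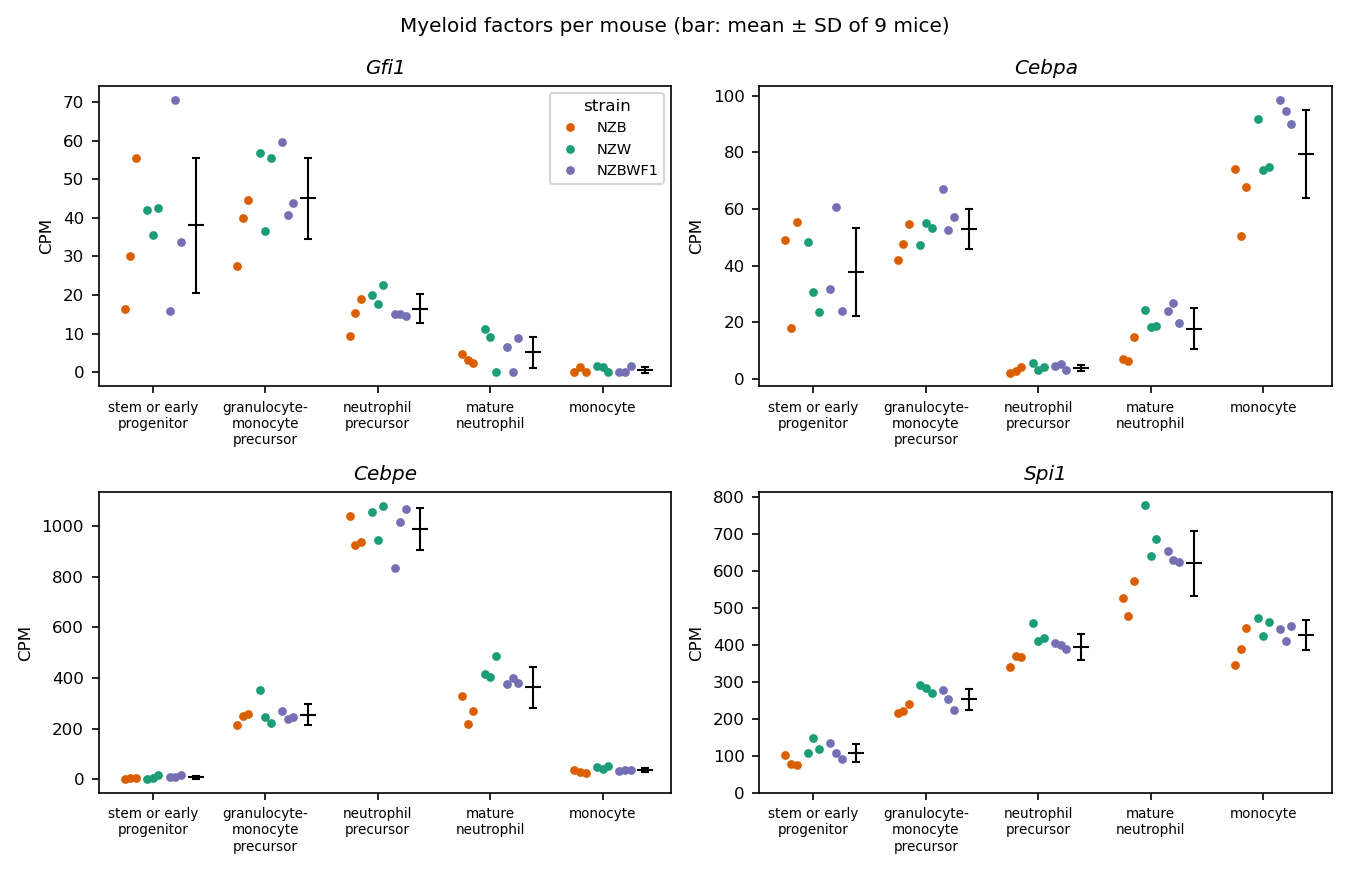
Level in CPM of Gfi1, Cebpa, Cebpe, and Spi1 in 5 cell classes, 1 point per mouse colored by strain, with black bars for the mean ± SD of 9 mice. Cebpe peaked in neutrophil precursors at 990 ± 83.2 CPM, Spi1 in mature neutrophils at 621 ± 88.1 CPM, Cebpa in monocytes among these classes, and Gfi1 fell to at most 1.64 CPM in monocytes.

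The erythroid and the granulocyte-monocyte branch were then set against each other directly. All 10 members passed the filter and all were called, 5 higher in early erythroid cells (Gata1, Gata2, Klf1, Tal1, and Gfi1b) and 5 higher in granulocyte-monocyte precursors (Gfi1, Cebpa, Cebpe, Spi1, and Runx1), compared with 77.4% of 8643 genes. Klf1 was higher in early erythroid cells by 8.41 ± 0.37 on the log2 scale, Gata1 by 8.08 ± 0.59, Gfi1b by 7.50 ± 0.44, Tal1 by 4.47 ± 0.16, and Gata2 by 2.55 ± 0.24. In granulocyte-monocyte precursors, the first 3 of these rested on 15, 6, and 11 UMIs. In the same comparison Cebpe differed by -6.92 ± 0.23, Cebpa by -6.56 ± 0.46, Spi1 by -5.99 ± 0.16, and Runx1 by -1.85 ± 0.09. Gfi1 was counted 2 times in early erythroid cells and 722 times in granulocyte-monocyte precursors, a 350-fold ratio of levels (95% interval 96.6 to 2897, counting error only). The smallest difference was that of Runx1, which was present in both branches, at 15.8 to 38.8 and 51.8 to 102 CPM.

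Cells with UMIs of an erythroid and a myeloid member at once were counted after each cell was thinned to 1000 UMIs. In stem or early progenitor cells, Gata2 was found in 52 of 499 cells, Spi1 in 58, and both in 6 (1.20% of the cells of all mice), while 6.77 would be expected if the genes were independent within each mouse. Gata2 and Cebpa occurred together in 5 cells (2.57 expected), and Gata1, found in 7 cells, was together with Spi1 in 0 cells (0.897 expected). In granulocyte-monocyte precursors, 0 of 3220 thinned cells held a Gata1 UMI, and 5 did without thinning. Without thinning, 30 progenitor cells held both Gata2 and Spi1, compared with 32.5 expected, and 7 held both Gata1 and Spi1, compared with 6.34 expected. In early erythroid cells, Gata1 was found in 202 of 1539 thinned cells, Spi1 in 16, and both in 1 (2.32 expected). Gata2 and Spi1 were together in 0 thinned cells (0.223 expected) and, without thinning, in 20 (8.56 expected). In granulocyte-monocyte precursors without thinning, Gata2 and Cebpa were together in 12 cells (7.01 expected). Cells without thinning differ in depth, and the part of depth and of remaining doublets in these numbers was not tested.

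Partners and other lineage factors were followed as a list of 34 genes, with 19 target genes of red cells and 20 of granulocytes and monocytes found among the counted genes. In early erythroid compared with progenitor cells, 17 of 18 red cell targets tested were higher and 1 was lower, with a median log2 fold change of 4.46, whereas the median over all 5773 genes was 0.00. Cpox, a gene of heme synthesis, rose by 3.78 ± 0.19, and the exception was the nuclear exportin Xpo7 (-3.45 ± 0.26). All 9 myeloid targets tested were lower (median -3.66), among them the signaling adaptor Fcer1g (-3.66 ± 0.15) and the leukotriene synthesis gene Alox5ap (-4.39 ± 0.16). Of 25 partners tested, 4 were higher and 16 lower (median -0.74). Over all genes of this pair, 1875 were higher and 1909 lower of 5773 (65.5%). Zfpm1, the cofactor FOG1 that binds GATA1, rose by 2.01 ± 0.13, and Runx2, a relative of Runx1, fell by 6.07 ± 0.37.

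In hemoglobinizing compared with early erythroid cells, 18 of 18 red cell targets were higher (median 1.47, compared with -0.03 over all genes), among them the GATA1 target Hemgn (1.84 ± 0.06). Of 18 partners, 5 were higher and 6 lower, beside 58.5% of all genes called. Nfe2, a factor for globin genes, rose by 1.34 ± 0.13, and Myb, a factor of proliferating progenitors, fell by 3.80 ± 0.25. All 5 myeloid targets tested were also higher (median 1.93), including Fcer1g (1.73 ± 0.29), in the class whose neutrophil panel ranged from 809 to 29833 CPM between mice. The part of neutrophil RNA in this was not tested.

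In granulocyte-monocyte precursors compared with progenitors, 14 of 15 myeloid targets were higher and 0 lower (median 2.16, compared with -0.04 over all genes, of which 59.2% were called), with Tyrobp at 3.08 ± 0.09. Of 29 partners tested, 6 were higher and 19 lower. Cebpd (3.93 ± 0.23) and Cebpb (3.44 ± 0.14), relatives of Cebpa, rose, while Bcl11a (-2.39 ± 0.11) and the TAL1 partner Lmo2 (-1.36 ± 0.08) fell. In neutrophil precursors compared with granulocyte-monocyte precursors, 20 of 20 myeloid targets were higher (median 2.93, compared with 0.00 over all genes, of which 82.7% were called), among them the integrin gene Itgam (4.03 ± 0.07). Of 28 partners, 10 were higher and 14 lower, with Cbfa2t3, a corepressor of the TAL1 complex, at -4.72 ± 0.29.

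In mature neutrophils compared with neutrophil precursors, 16 of 20 myeloid targets were higher and 3 lower (median 0.56, compared with -0.02 over all genes, of which 63.8% were called), with the formyl peptide receptor Fpr1 at 2.49 ± 0.08. Of 23 partners, 12 were higher and 6 lower (median 0.41). In monocytes compared with granulocyte-monocyte precursors, 16 of 18 myeloid targets were higher and 1 lower (median 1.23, compared with 0.05 over all genes, of which 75.9% were called), and 21 of 30 partners were higher and 5 lower. The monocyte factor Klf4 rose by 1.44 ± 0.07 and Zeb2 by 1.79 ± 0.06, and Myb fell by 3.43 ± 0.09. In basophil or mast cells compared with progenitors, 8 of 8 myeloid targets were higher, and of 15 partners 2 were higher, including Cebpb (2.60 ± 0.23), and 7 lower, including Irf8 (-2.68 ± 0.33), a factor of monocytes and dendritic cells, beside 48.4% of all genes called. The neutrophil precursor panel stood at 45940 CPM in this class, and its part in the myeloid targets was not tested.

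The genes whose mean level across the 16 classes was most like that of a member were named among 9421 genes with at least 20 CPM in some class, by Pearson r of log2(mean CPM + 1). The points share their libraries, so r is given as a description. Klf1 was followed most closely by Epor, the erythropoietin receptor (r = 0.980), Kel (0.974), and Mylk3 (0.973), and Gata1 by Epdr1 (0.949), Hemgn (0.935), and Sept8 (0.931). Tal1 was followed by C530008M17Rik (0.972), Tfr2 (0.958), and Pdzk1ip1 (0.945), and Gfi1b by Mfsd2b (0.945). Gata2 was followed by BC051537 (0.970), Csrp3 (0.966), and Slc22a3 (0.959), and Cebpe by Trem3 (0.973), Rhou (0.965), and Gca (0.962). Spi1 was nearest to Zfp516 (0.932), Ncf4 (0.926), and Csf2ra (0.924), Cebpa to Csgalnact2 (0.909), and Runx1 to Tax1bp1 (0.912) and the interleukin 3 receptor gene Il3ra (0.909). Gfi1 had the loosest neighbors, led by Itih5 (0.853).

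Strains were compared within each class, to ask whether the members differ between NZBWF1 mice and their parents. When NZBWF1 was set against the mean of both parents, 0 of 49 tests of a member in a class passed (edgeR quasi-likelihood test, 3 mice per strain, or 1 NZB, 3 NZW, and 2 NZBWF1 mice in conventional dendritic cells, adjusted over all genes of the class), 5 had an unadjusted p below 0.05, and DESeq2 called 0. The background was 0.651% of 76677 tests over all genes. Against NZW alone, 0 of 49 passed, with 6 at an unadjusted p below 0.05 and 0 by DESeq2 (background 1.54%). Against NZB alone, 5 of 49 passed (background 3.83%), all higher in NZBWF1, and between NZB and NZW 7 of 49 passed (background 9.05%), all lower in NZB. Of these 12 calls, 9 were of Runx1. Both of these comparisons share the NZB mice. A p-value covers the spread between mice.

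Runx1 was lower in NZB than in NZW in 5 classes: by 1.11 ± 0.28 on the log2 scale in plasmacytoid dendritic cells (edgeR adjusted p = 0.00715), 0.90 ± 0.17 in neutrophil precursors (0.000183), 0.83 ± 0.20 in early erythroid cells (0.00584), 0.79 ± 0.13 in monocytes (3.89e-05), and 0.71 ± 0.13 in granulocyte-monocyte precursors (8.53e-05). These are folds of 0.464, 0.535, 0.562, 0.577, and 0.613. The shares of all genes called between NZB and NZW in the same classes were 6.37%, 14.8%, 7.75%, 22.6%, and 12.1%. In the sum of all cells of a mouse, where cell shares and levels cannot be told apart, Runx1 was lower by 0.61 ± 0.10 (edgeR adjusted p = 0.000954, background 18.2%).

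In monocytes, Runx1 was at 58.8, 77.6, and 66.5 CPM in NZB, 111, 121, and 129 CPM in NZW, and 102, 108, and 102 CPM in NZBWF1. In granulocyte-monocyte precursors it was at 51.8, 66.4, and 53.4 CPM in NZB, 77.8, 89.0, and 102 CPM in NZW, and 101, 88.3, and 81.4 CPM in NZBWF1. In neutrophil precursors it was at 18.5, 17.6, and 20.8 CPM in NZB, 32.5, 41.2, and 44.8 CPM in NZW, and 41.5, 23.8, and 35.8 CPM in NZBWF1. In all 3 classes the NZB mice lay below every other mouse.

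In early erythroid cells Runx1 was at 18.0, 20.9, and 15.8 CPM in NZB, 24.6, 38.8, and 32.8 CPM in NZW, and 20.7, 31.6, and 35.3 CPM in NZBWF1, so that NZB and NZBWF1 overlapped. In plasmacytoid dendritic cells it was at 66.6, 36.4, and 41.2 CPM in NZB, 69.5, 109, and 135 CPM in NZW, and 153, 94.4, and 74.6 CPM in NZBWF1. The call in early erythroid cells was lost without NZB replicate 3 (-0.70, edgeR adjusted p = 0.0628) or NZW replicate 2 (-0.65, 0.129). That in plasmacytoid dendritic cells was lost without NZB replicate 2 (-0.92, edgeR adjusted p = 0.0582), NZW replicate 2 (-1.07, 0.0621), or NZW replicate 3 (-0.90, 0.138), and with at least 2000 UMIs and 1000 genes (-0.55, 0.879). Those in granulocyte-monocyte precursors, neutrophil precursors, and monocytes were kept without any 1 mouse and under every other setting tried.

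In the 5 classes, the fitted Runx1 level of NZBWF1 lay closer to NZW than to NZB. Runx1 was higher in NZBWF1 than in NZB by 1.01 ± 0.24 on the log2 scale in plasmacytoid dendritic cells (edgeR adjusted p = 0.0121), 0.61 ± 0.18 in neutrophil precursors (0.0324), 0.61 ± 0.14 in granulocyte-monocyte precursors (0.00286), and 0.57 ± 0.14 in monocytes (0.00445). In early erythroid cells the value was 0.74 ± 0.21 (edgeR adjusted p = 0.0633). Against NZW, NZBWF1 differed in these 5 classes by -0.29 to -0.09 with no call (edgeR adjusted p between 0.542 and 0.968), which does not show that the levels are equal. Against the mean of both parents, the values were 0.16 to 0.46 with no call (edgeR adjusted p between 0.524 and 0.772). A level midway between the parents was therefore not told apart from 1 near NZW. The call against NZB in granulocyte-monocyte precursors was lost with at least 2000 UMIs and 1000 genes (0.42, edgeR adjusted p = 0.114). That in neutrophil precursors was lost without any 1 of NZB replicates 1 to 3 or NZBWF1 replicates 1 and 3 (0.51 to 0.66, edgeR adjusted p between 0.0501 and 0.172) with DESeq2 (0.62, 0.0558), without removal of doublets (0.52, 0.0545), and with whole clusters as classes (0.60, 0.0517). That in plasmacytoid dendritic cells was lost without NZB replicate 2 or 3 or NZBWF1 replicate 1 or 2 (0.80 to 1.05, edgeR adjusted p between 0.0592 and 0.141) and with at least 2000 UMIs and 1000 genes (0.76, 0.826).

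**Figure D5:**
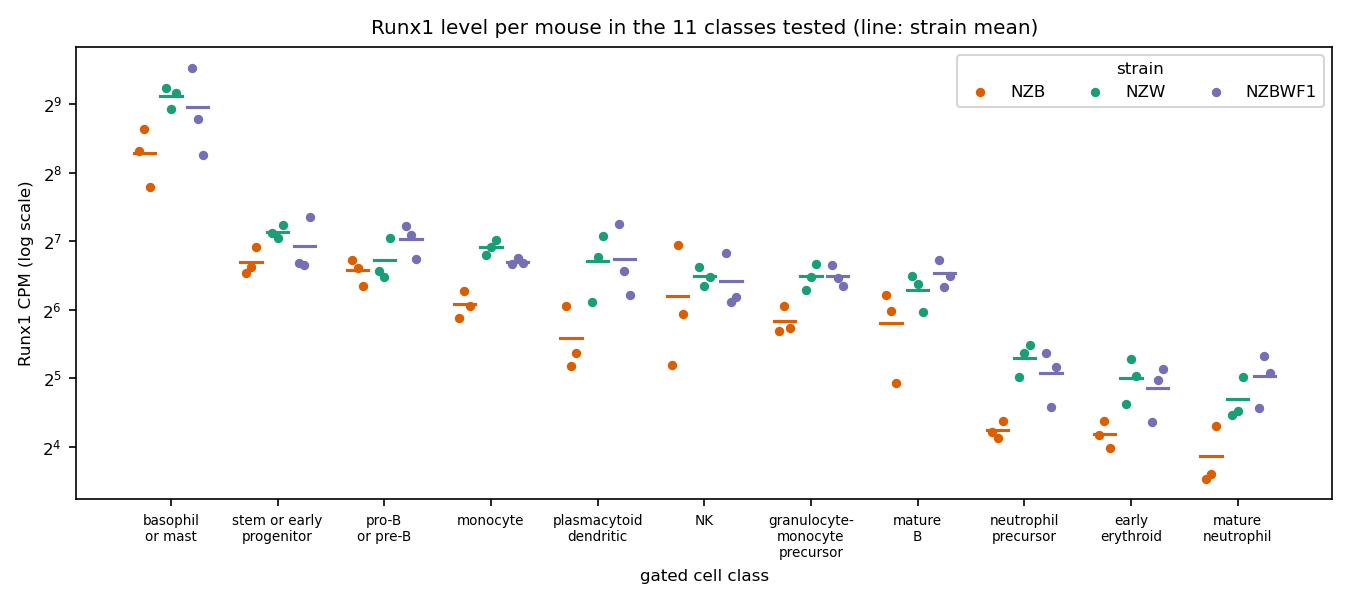
Runx1 level in CPM (log scale) in the 11 classes in which it was tested with 9 mice, 1 point per mouse colored by strain and a line at each strain mean. The NZB mean was the lowest of the 3 strains in all 11 classes, and all NZB mice lay below all NZW mice in 8 of them.

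Over the 11 classes in which Runx1 passed the filter with 9 mice, its fitted fold change was negative in NZB in 11, and all NZB mice lay below all NZW mice in 8. Of 762 genes tested in the same 11 classes, 22 (2.89%) were lower in NZB in all, 30 were higher in all, and 17 (2.23%) had NZB mice wholly below NZW mice in at least 8. The smallest differences were those of pro-B or pre-B cells (-0.19 ± 0.21) and NK cells (-0.40 ± 0.39). Cells of all classes come from the same mice, so the classes are not independent. Reads were counted against the common mouse reference, and whether sequence differences of NZB in Runx1 change the counting was not tested.

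Some other markers also differed between NZB and NZW in the 5 classes where Runx1 was called. The summed stem or early progenitor panel was lower in every NZB mouse than in every NZW mouse in all 5 classes. It was 92.5 to 117 compared with 152 to 163 CPM in granulocyte-monocyte precursors, 16.6 to 20.1 compared with 30.4 to 41.6 CPM in monocytes, and 2.98 to 4.41 compared with 13.6 to 15.4 CPM in neutrophil precursors. Different genes carried it. In neutrophil precursors Kit was at 1.19 to 4.36 compared with 8.63 to 12.0 CPM (8.86 to 11.9 in NZBWF1). In early erythroid cells Adgrg1 was at 4.64 to 7.02 compared with 38.8 to 51.6 CPM (23.8 to 29.4 in NZBWF1). Kit was higher in NZB there, at 78.1 to 94.7 compared with 53.4 to 62.4 CPM (74.7 to 78.3 in NZBWF1). In plasmacytoid dendritic cells Flt3 was at 106 to 134 compared with 167 to 227 CPM (116 to 128 in NZBWF1). In monocytes, the granulocyte-monocyte precursor panel was higher in NZB (1054 to 1661 CPM) than in NZW (657 to 716 CPM). The part of these markers, and of cell stages within a class, was not tested.

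Beside Runx1, the calls were few. Spi1 was lower in NZB than in NZW in granulocyte-monocyte precursors, at 215, 220, and 240 compared with 290, 284, and 268 CPM, with no overlap (log2 fold change -0.41 ± 0.11, edgeR adjusted p = 0.00525). Its fitted fold change was negative in all 11 classes tested with 9 mice, and in 5 of them the NZB mice lay wholly below the NZW mice. Of 650 genes tested in the same classes, 17 (2.62%) were lower in NZB in all and 24 were higher in all. NZB mice lay wholly below NZW mice in at least 5 classes for 7.69% of these genes, and 26.2% were called lower in at least 1. Cebpe was lower in NZB monocytes, at 34.5, 26.7, and 25.3 compared with 45.9, 39.8, and 49.9 CPM (-0.66 ± 0.19, edgeR adjusted p = 0.0100). This call was lost without NZB replicate 2 or 3 or NZW replicate 3 (-0.58 to -0.60, edgeR adjusted p between 0.0542 and 0.0745), with at least 2000 UMIs and 1000 genes (-0.59, 0.0598), and with whole clusters as classes (-0.40, 0.126). The part of neutrophil RNA in this Cebpe difference was not tested. Cebpa was higher in NZBWF1 than in NZB monocytes, at 98.6, 94.7, and 90.1 compared with 74.2, 50.3, and 67.6 CPM (0.57 ± 0.15, edgeR adjusted p = 0.00858), and lost its call without NZB replicate 2 (0.39, 0.165) or NZBWF1 replicate 2 (0.54, 0.0554) and with at least 2000 UMIs and 1000 genes (0.42, 0.308).

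In the erythroid classes, Gata1, Klf1, Tal1, and Gfi1b were not called between any strains. Gata1 in early erythroid cells was at 133, 112, and 134 CPM in NZB and 151, 170, and 157 CPM in NZW, without a call (log2 fold change -0.32 ± 0.11, edgeR adjusted p = 0.0624). In the sum of all cells, where cell shares and levels cannot be told apart, Gata2 was higher in NZB than in NZW. It was at 12.9, 12.8, and 11.4 compared with 6, 6.37, and 7.72 CPM (log2 fold change 0.98 ± 0.23, edgeR adjusted p = 0.0108). Cell shares in NZB and NZW were 0.745% and 0.406% for basophil or mast cells and 1.71% and 1.17% for progenitors. They were 5.06% and 3.78% for early erythroid cells and 0.348% and 0.154% for megakaryocytes. The part of these shares was not tested. Within classes Gata2 was not called. Early erythroid cells gave 0.98 ± 0.36 (edgeR adjusted p = 0.121), basophil or mast cells -0.44 ± 0.26 (0.480), and progenitors -0.76 ± 0.30 (0.273).

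Between NZB and NZW, the partner list had 3 genes higher and 10 lower of 31 tested in monocytes (median -0.30, compared with -0.01 over all genes), where 22.6% of all genes were called. In granulocyte-monocyte precursors 3 were higher and 5 lower of 28, beside 12.1% of all genes called. Red cell targets in early erythroid cells had 0 higher and 6 lower of 19 (median -0.15, compared with 0.00), beside 7.75% of all genes called. Myeloid targets had 9 higher and 0 lower of 20 in neutrophil precursors (median 0.29, compared with -0.01), beside 14.8% of all genes called. They had 1 higher and 5 lower of 16 in granulocyte-monocyte precursors (2 higher and 2 lower by DESeq2) and 2 higher and 6 lower of 18 in monocytes (median -0.06 in both).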

How the data were processed

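Per the labels, libraries were made with the 10x 3′ v3.1 kit, and the submitters' processing notes name bcl2fastq 2.20, Cell Ranger 3.1.0, and mm10. The authors deposited UMI counts per gene and barcode, merged over 9 libraries, without normalization. The annotation and any thinning to equal depth are not given in the sources used here. The number after a barcode was read as the line of the list of merged libraries. Barcodes were kept with at least 1000 UMIs, 500 genes, and at most 10% mitochondrial UMIs (39051 of 68444), and 2526 likely doublets were removed by Scrublet score in scanpy 1.11.5, 0.8% per 1000 barcodes. A cell took the class whose panel had the highest mean z-score (at least 0.5, a lead of 0.25, and at least 2 panel genes), and 39 Leiden clusters were the alternative, with the same class in 91.3% of cells named by both. The gating rule was set after the data were seen. Summed UMIs were tested with edgeR 4.0.16 (TMM, filterByExpr, robust quasi-likelihood, R 4.3.3), with the Benjamini-Hochberg correction over all genes of a fit, and with DESeq2 1.42.0 as the alternative. The error of a fold change was taken from the fold change and its F value, or from the Poisson error of the summed UMIs where that was larger (19 of 47 member tests between classes and 4 of 236 between strains). On simulated counts, the fit of early erythroid against progenitor cells recovered 152 of 175 changed genes with 10 others, and that of NZBWF1 against its parents in early erythroid cells 121 of 200 with 4 others. The changed genes were changed 2-fold, were above a limit on mean counts, and shared 1 fixed spread. Smaller changes and genes of lower counts were not covered. Named genes are all members, the 2 called list genes of smallest p per direction and pair, and the 3 most alike genes, of which the text gives a part, and 1 gene is not reported here. The members and lists were chosen with earlier results of these data known. Free RNA, from barcodes under 100 UMIs, came to 0.242% to 0.811% of the median cell.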

Additional observations from a re-analysis of the deposited data

Results flagged for a closer look

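The fitted Gata2 difference between NZB and NZW had opposite signs in 2 cell classes. In early erythroid cells the log2 fold change of NZB over NZW was 0.98 (edgeR adjusted p = 0.121), and in basophil or mast cells it was -0.44 (edgeR adjusted p = 0.480). In stem or early progenitor cells, the value was -0.76 (edgeR adjusted p = 0.273). None of these values passed the threshold, and the difference between the classes was not tested.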

How the results depend on the processing

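Calls between classes numbered 43, and 41 to 60 under the other settings, with 41 to 45 when 1 mouse was left out. Without a filter on low counts, NZBWF1 against the mean of the parents gave 2 calls and against NZW 1 call, compared with 0 and 0, and leaving out 1 mouse gave 0 to 1 for both. Against NZB, 5 calls became 2 with at least 2000 UMIs and 1000 genes, and 2 to 5 without 1 mouse. NZB against NZW gave 7 calls, 11 with whole clusters as classes, and 5 to 9 without 1 mouse. With at least 2000 UMIs and 1000 genes, 3 changes between classes reversed, none of them called: Spi1 (-0.11) and Runx1 (0.36) in mature against precursor neutrophils and Cebpa (-0.027) in monocytes against granulocyte-monocyte precursors. Steps in the order of levels that passed ranged from 0 to 22 without 1 mouse, compared with 19. The Gata2 share in progenitors was 73.9% with whole clusters, compared with 86.6%, and in hemoglobinizing erythroid cells 0.556% with at least 2000 UMIs and 1000 genes and 0.206% without removal of doublets, compared with 0%. Progenitor cells with both Gata2 and Spi1 were 6.01% without thinning, compared with 1.20%. The causes were not tested. Scaling to total UMIs was added after the data were seen.

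Mice of different strains share only a replicate number. The correlation of their deviations from the strain mean was over 0.1 in 7 of 9 pairs with the same number (-0.10 to 0.50), and 7 of 9 mice correlated best with their own number. With the replicate block, calls between NZB and NZW were 8, between NZBWF1 and NZB 5, and 0 in the other strain comparisons.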
